A study of Mus musculus with 15 samples.

Results

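The 28 genes described here carry out or control the making of cholesterol, move sterols inside the cell, or make fatty acids under the same regulators. They were chosen as a fixed list of symbols, and all 28 were found among the 24419 gene symbols that the 3 deposited count tables share. The list held 5 genes of SREBP control, 7 of the mevalonate arm, 3 of the steps from squalene to lanosterol, 8 of the steps from lanosterol to cholesterol, 3 of intracellular sterol transport and 2 of fatty acid synthesis. It is not the whole pathway, and other enzymes and receptors of sterol balance are not analysed here.

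RNA was sequenced in bulk from microglia, brain-resident macrophages that were sorted from forebrain by intermediate staining for CD45 and CD11b. Male mice had the middle cerebral artery occluded for 60 min and then reopened, or had sham surgery with no occlusion. An age of 8 to 24 weeks is recorded here for the stroke samples, and none for the sham sample. Wild-type C57BL/6J mice gave 1 library after sham surgery and 1 library each on days 1, 6, 14 and 28 after stroke. Igf1-Egfp transgenic mice, in which EGFP reports Igf1 transcription, gave 1 EGFP-negative and 1 EGFP-positive library on day 6 and again on day 14 after stroke. Yy1flox/flox mice without Cre (control) and Cx3cr1-CreER;Yy1flox/flox mice, in which an inducible Cre driven from the Cx3cr1 gene deletes the transcription factor Yy1, gave 3 libraries each on day 6 after stroke. The floxed alleles are therefore carried by both Yy1 groups, and Cre only by the deleted one. The submitters' design text gives a number of biological replicates after the Yy1 groups, as 3 each, and every other group has 1 library here. Cx3cr1 is also expressed by monocytes and border-associated macrophages, and the labels do not say how many mice each library pooled.

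Cells build cholesterol from acetyl-CoA through mevalonate, farnesyl diphosphate, squalene and lanosterol. The transcription factors SREBP-2 and SREBP-1 are held in the endoplasmic reticulum by Scap and the Insig proteins when sterols are plentiful, and are released to switch on the synthesis genes when sterols run low. Sterol taken up by phagocytosis leaves lysosomes through the Npc proteins, and oxysterols made from it activate the nuclear receptor LXR, which switches on export genes such as Apoe and Abca1. Microglia that clear myelin debris take up large amounts of cholesterol this way.

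Library totals were 16.8 to 52.6 M counts (M, mega) over the 7 libraries of the time course and the day 6 EGFP sorts. The 2 EGFP libraries of day 14 had 23.1 and 24.6 M, and the 6 Yy1 libraries had 10.5 to 13.9 M. Levels are given as CPM, counts scaled to the library total and by TMM within a table. A difference between 2 single libraries is the log2 ratio of CPM plus a pseudocount of 1. The size rule asks for an absolute ratio of 1 or more on that scale and for 20 CPM or more in 1 of both libraries. Such a difference has no replicate check, and intervals of folds (95%, exact Clopper-Pearson) cover counting error only. The wild-type libraries of days 14 and 28 stood apart from the other wild-type ones. They held a count for 11823 and 9886 genes, against 16009 to 17321 in the sham, day 1 and day 6 libraries. The EGFP-negative and EGFP-positive libraries held a count for 15634 and 13331 genes on day 6, and for 10892 and 12498 on day 14. In the Yy1 table the controls held 13835 to 14532 and the deleted libraries 12184 to 13009. All 9 microglia markers were detected in every library, but their level moved. They summed to 26770 CPM in sham and to 6348, 13700, 8181 and 13340 CPM on days 1, 6, 14 and 28. Past the size rule as lower than sham were 8, 4, 9 and 6 of them on those days. Of all genes, 10.6%, 2.9%, 20.2% and 24% were. Markers of other cells also moved between libraries. The summed level of 10 endothelial and mural markers went from 261 CPM in sham to 696, 3200 and 5619 on days 1, 6 and 14, and was 31.1 CPM on day 28. The 7 monocyte markers summed to 61.3 CPM in sham and to 1592, 1441, 2123 and 1915 CPM on days 1, 6, 14 and 28. Fn1 made up 2095 CPM of the day 14 sum, where Ccr2 was at 0.925 CPM against 7.55 in sham. Of the 7, 5, 2, 1 and 6 were past the rule as higher than sham on those days. The 8 neutrophil markers in the tables summed to 702, 2348, 846, 410 and 2981 CPM from sham to day 28. Csf3r made up 654 CPM of the sham sum and 399 CPM of the day 14 sum. It was lower on day 1 at 190 CPM, while 6 other neutrophil markers were past the rule as higher, and 4, 0 and 5 of the 8 were on days 6, 14 and 28. Ltf, Ngp and Cxcr2 were at 0 on day 14 and Cxcr2 on day 28. The part of these cells in the sterol gene levels was not tested. In bulk RNA, fewer cells of a type and less RNA per cell cannot be told apart.

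In sham microglia Npc1, Npc2 and Scd2 were the most abundant of the 28 for their length, and most synthesis enzymes were low. Per kb of merged exon, the level was 33.3 CPM for Npc1 and 29.3 for Npc2, which together pass cholesterol out of the lysosome. Scd2, a stearoyl-CoA desaturase, stood at 23.6 CPM per kb and Insig2 at 14.4. The lowest of the 28 were Lss at 0.778 and Stard4, a soluble sterol carrier, at 0.554 CPM per kb. As whole-gene levels, 24 of the 28 lay between 2 and 50 CPM in sham.

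**Figure D1:**
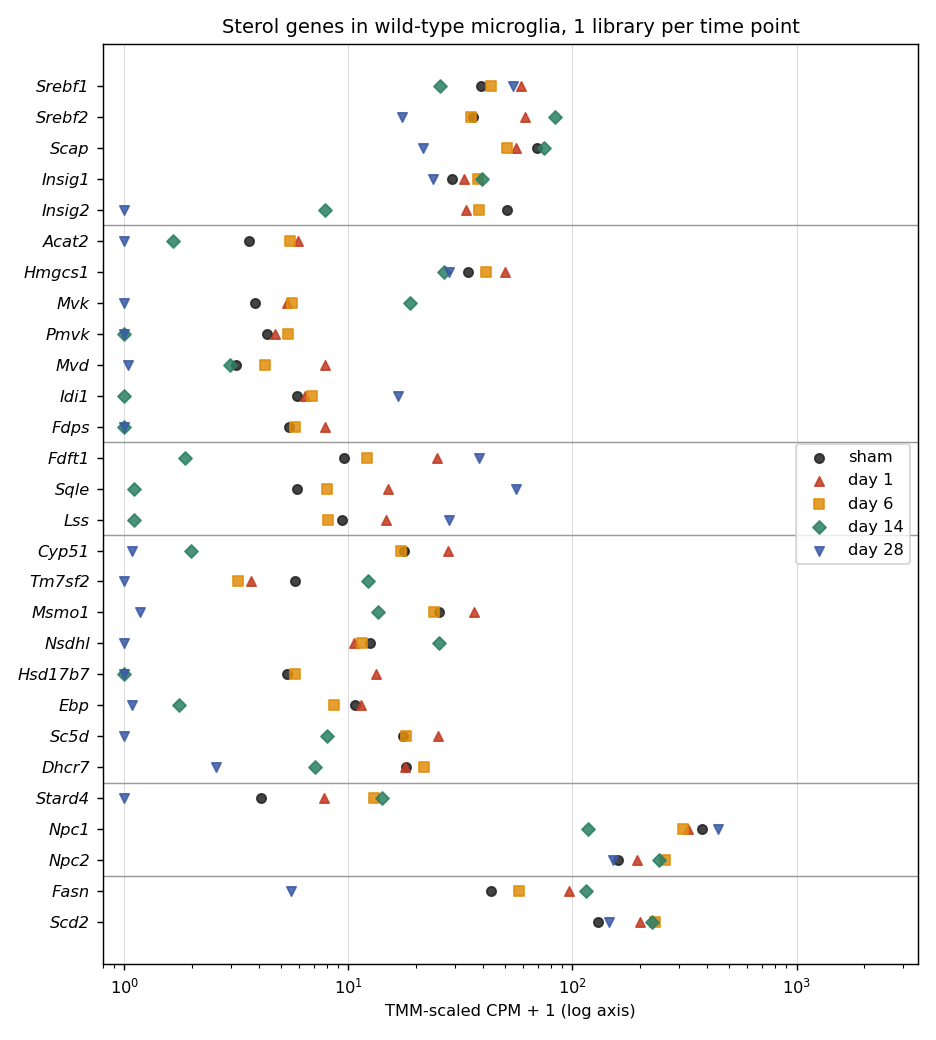
Level of each of the 28 genes (rows, in pathway order) in the 5 wild-type libraries, as TMM-scaled CPM plus 1 on a log axis, with 1 point per library and no replicates. The sham, day 1 and day 6 points of all 28 genes lie above 1 CPM, while day 14 and day 28 points of 10 and 14 genes lie under 1 CPM.

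On day 1 most synthesis genes were a little higher than in sham, and 2 were past the size rule. The log2 ratio was above 0 for 22 of the 28 genes, with a median of 0.52. Over the 12382 genes with at least 2 CPM in 1 of both libraries, 54% had a ratio above 0 and the median was 0.07. With RLE or total-count scaling, 23 of the 28 were above 0. Fdft1 and Fasn were past the rule as higher and none as lower, of 14 genes that reached 20 CPM. Over all genes at that level, 12.5% were past the rule as higher and 10.6% as lower, so a count of 2 among 14 lies near the background.

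All 7 genes of the mevalonate arm had a day 1 ratio above 0, from 0.11 to 1.31. Hmgcs1, which makes HMG-CoA, had 33.1 CPM in sham, and 48.9, 40.3, 25.7 and 27.0 CPM on days 1, 6, 14 and 28. It was 1.48-fold higher on day 1 than in sham (1.39 to 1.57) and stayed within the size rule on every day. Mvd, which makes isopentenyl diphosphate, went from 2.16 CPM in sham to 6.84 on day 1, below the level the rule considers. The other 5 (Acat2, Mvk, Pmvk, Idi1 and Fdps) were between 2.59 and 4.89 CPM in sham.

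All 3 genes of the squalene steps were also higher on day 1. Fdft1, squalene synthase, had 8.53 CPM in sham, and 24.0, 11.2, 0.871 and 37.1 CPM on days 1, 6, 14 and 28. The day 1 level was 2.81-fold that of sham (2.52 to 3.14) and the day 6 level was back within the rule. Sqle, the squalene epoxidase, had 4.87, 14.1, 7.06, 0.109 and 55.0 CPM in the same order. Its day 1 ratio of 1.36 was like that of Fdft1, but the gene did not reach 20 CPM there.

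Among the lanosterol steps, 5 of 8 genes were above sham on day 1. Cyp51, the lanosterol demethylase, had 16.6 CPM in sham, 26.8 on day 1 and 16.2 on day 6. Msmo1, which removes the methyl groups next in line, had 24.5, 35.2 and 23.2 CPM. Dhcr7, which completes the ring of cholesterol, stood at 17.0, 16.9 and 20.9 CPM. The 3 genes of this group below sham on day 1 had ratios from -0.65 to -0.01.

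The SREBP control genes did not move together on day 1. Srebf2, which encodes SREBP-2, had 34.8 CPM in sham, and 60.5, 34.3, 82.4 and 16.3 CPM on days 1, 6, 14 and 28. Srebf1 had 38.1 CPM in sham and 57.8, 42.4, 24.7 and 53.5 CPM on those days. On day 1 both were higher by less than the size rule asks, with log2 ratios of 0.78 and 0.59. Insig1, itself an SREBP target, had 28.1 CPM in sham and 31.7, 37.0, 38.6 and 22.8 CPM after stroke. Insig2 had its highest level in sham, at 50.0 CPM, and 32.5, 37.4, 6.86 and 0 CPM after stroke. The fatty acid genes were both higher. Fasn, fatty acid synthase, had 42.5 CPM in sham, and 95.7, 56.8, 114 and 4.56 CPM on the 4 days after stroke. It was 2.25-fold higher on day 1 (2.14 to 2.37). Scd2 had 129, 200, 232, 226 and 145 CPM and was above sham on every day, by at most 1.80-fold (1.75 to 1.86, day 6). On day 1 the microglia markers summed to 6348 CPM, against 26770 in sham, and most monocyte and neutrophil markers were higher in the same library, as given above.

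Promoter windows of Hmgcs1, Mvk and Fasn are shown for 2 sequence motifs tied to sterol control. Each gene was higher on day 1 than in sham, but only Fasn was past the size rule. Of the 28 genes, 22 were matched in the table of RefSeq promoters used here (GRCm38.p6), and the 250 bases upstream of the start were searched on both strands. The NF-Y box CCAAT, whose factor works beside SREBP, was in windows of 20 of the 22 genes (90.9%) and in 37.5% of all 27025 genes with a window. The sterol regulatory element TCACNCCAC was in 1 of the 22 (Hmgcs1, 4.55%) and in 1.22% of all genes. Other spellings of the element were not searched, and a match is a run of letters only. Capitals mark the NF-Y boxes on either strand and, in Hmgcs1, the sterol element at -137 from the start, between boxes at -176 and -45. Mvk is shown for its 5 boxes and Fasn for its 3, of which 2 overlap. Insig2, Nsdhl and Tm7sf2, which were below sham on day 1, held boxes too. The windows read 5' to 3' along the gene. They lie at chr13:119690101-119690350 (plus strand, Hmgcs1), chr5:114444019-114444268 (plus, Mvk) and chr11:120824548-120824797 (minus, Fasn).
Hmgcs1: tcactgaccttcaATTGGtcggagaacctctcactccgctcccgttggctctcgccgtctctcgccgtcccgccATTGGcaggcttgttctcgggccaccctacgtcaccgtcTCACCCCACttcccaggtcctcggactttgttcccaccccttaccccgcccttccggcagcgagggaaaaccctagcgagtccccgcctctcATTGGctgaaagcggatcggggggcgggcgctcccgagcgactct
Mvk: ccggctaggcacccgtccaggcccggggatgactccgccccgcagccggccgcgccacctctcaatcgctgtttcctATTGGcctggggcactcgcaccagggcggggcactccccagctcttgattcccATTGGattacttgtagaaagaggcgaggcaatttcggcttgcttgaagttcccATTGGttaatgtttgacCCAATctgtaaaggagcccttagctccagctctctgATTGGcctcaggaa
Fasn: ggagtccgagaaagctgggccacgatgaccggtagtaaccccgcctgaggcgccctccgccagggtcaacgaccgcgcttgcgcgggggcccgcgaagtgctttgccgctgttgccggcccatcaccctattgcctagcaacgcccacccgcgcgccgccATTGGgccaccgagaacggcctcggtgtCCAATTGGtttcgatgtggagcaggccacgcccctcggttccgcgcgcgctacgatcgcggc

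By day 6 the 28 genes were nearer to sham in their median ratio than on day 1. None was past the size rule in either direction, of 12 that reached 20 CPM, where 10.6% of all genes were past it as higher and 2.9% as lower. The median log2 ratio to sham was 0.19, with 18 of 28 above 0 (20 under each other scaling), and 47.7% of all genes with at least 2 CPM were above 0. Against day 1, the median was -0.23 and 10 of 28 were above 0, where 50% of all genes with at least 2 CPM were. Fdft1 was the only one of the 28 past the rule between days 1 and 6, at 0.465-fold (0.418 to 0.517), where 6.2% of all genes were lower and 8.61% higher. The mevalonate genes were again all above sham on day 6, at ratios of 0.08 to 0.61. Stard4 had the largest ratio of the 28 on day 6, at 1.67. It had 3.09 CPM in sham, 6.82 on day 1 and 12.1 on day 6, below the level the rule considers. Npc2 had 159 CPM in sham and 259 on day 6, a ratio of 0.70. Npc1 was lower at 310 CPM on day 6 than at 377 in sham.

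In the day 14 and day 28 libraries, with their low number of detected genes, many of the 28 were missing. Of the 24 genes with 2 to 50 CPM in sham, 10 (41.7%) were under 1 CPM on day 14 and 14 (58.3%) on day 28. Of all 7418 genes in that band, 22.6% and 45.8% were. None of the 24 was under 1 CPM on day 1 or day 6. At exactly 0 counts were 4 genes on day 14 (Pmvk, Idi1, Fdps and Hsd17b7) and 10 on day 28. A count of 0 allows up to 0.163 CPM on day 14 and 0.132 CPM on day 28 (3 counts per library).

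The 28 genes split on day 14. Srebf2, Nsdhl and Fasn were past the rule as higher than sham, and Insig2 and Npc1 as lower, of 12 genes considered, where 22.6% and 20.2% of all genes were past it. Srebf2 reached 82.4 CPM, above the other 4 wild-type libraries and 2.37-fold that of sham (2.21 to 2.53). Fasn was 2.67-fold higher (2.52 to 2.84). Nsdhl, a sterol dehydrogenase, had 11.5 CPM in sham and 24.4 on day 14. Insig2 was at 6.86 CPM against 50.0 in sham, 0.137-fold (0.114 to 0.164). Npc1 was at 117 CPM against 377, 0.31-fold (0.296 to 0.324). Of the mevalonate and squalene genes, 6 of 7 and 3 of 3 were below sham, but only 1 and 0 of them reached 20 CPM. Of all genes with at least 2 CPM, 46.4% were above sham. Cyp51 stood at 0.979 CPM, Sqle and Lss each at 0.109 CPM. The median over the 28 was -1.02 and -0.13 over all genes with at least 2 CPM, with 10 of 28 above 0 (11 by RLE). The median of all genes moved by 0.17 with RLE scaling and 0.11 with total counts. On the same day the endothelial and mural markers were at their highest in the time course and all 10 were past the rule against sham. Relative to day 6, Srebf2 and Nsdhl were past the rule as higher and Insig2, Dhcr7 and Npc1 as lower, where 17.1% of all genes were higher and 14.3% lower. Fasn, at a ratio of 0.99, was past it with RLE (1.11) and total-count scaling (1.04).

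On day 28 the 3 squalene genes were high while the lanosterol steps were near or at 0. Sqle was at 55.0 CPM against 4.87 in sham, 11.3-fold (9.87 to 12.96). Fdft1 was 4.35-fold higher (3.88 to 4.89). Lss, lanosterol synthase, had 8.397 CPM in sham and 27.0 on day 28, 3.22-fold (2.85 to 3.64). All 3 members of this group were past the rule as higher, where 27% of all genes were. In the same library, Cyp51 had 0.0878 CPM, Msmo1 0.176 and Dhcr7 1.58. None of the 8 lanosterol genes was above sham, and their median log2 ratio was -3.47. Of all genes with at least 2 CPM, 40.5% were above sham. Only 1 of the 8 reached 20 CPM in 1 of both libraries. Of all 7418 genes with 2 to 50 CPM in sham, 45.8% were under 1 CPM in this library. Past the rule as lower were Srebf2, Scap, Insig2, Msmo1 and Fasn, where 24% of all genes were. The call of Srebf2 was lost with RLE scaling, where its ratio was -0.93 in place of -1.05. Srebf2 was at its lowest level of the time course, and Scap had 20.5 CPM against 68.4 in sham. Srebf1 stood apart from Srebf2 at 53.5 CPM. Npc1 was at 447 CPM, its highest wild-type level. Over the 28 the median was -1.89, and -0.51 over all genes with at least 2 CPM. Over the 14 genes considered by the rule it was -0.18.

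Day 28 against day 14 put the largest steps side by side. Of 13 genes considered, Srebf1, Fdft1, Sqle, Lss and Npc1 were past the rule as higher, where 29.9% of all genes were. With total-count scaling Srebf1 had a ratio of 0.96 in place of 1.08, inside the rule. Srebf2, Scap, Nsdhl and Fasn were past it as lower, where 30.1% of all genes were. Sqle and Lss had 2 counts each on day 14, so their folds rest on almost no reads. With at least 10 counts asked in both libraries, a condition chosen after the values were seen, 3 of the 5 remained. On day 28 the dendritic cell markers summed to 457 CPM, against 6.34 to 16.4 CPM in the other wild-type libraries, and their part was not tested.

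Exons of Fdft1 overlap exons of Ctsb on the opposite strand, by 774 bases in the longest overlap of 1 exon pair (GRCm38, GENCODE M21). Whether the counting used strand is not stated in the sources used here. Ctsb, a lysosomal protease, had 1297, 4107, 4397, 2081 and 1144 CPM from sham to day 28. Both genes were higher on day 1 than in sham, and Fdft1 was lowest on day 14 and highest on day 28. The part of Ctsb reads in the Fdft1 counts was not tested. Shorter opposite-strand overlaps touch Cyp51 (Akap9, 166 bases), Srebf1 (Rai1, 109 bases) and Npc1 (Rmc1, 319 bases). Same-strand overlaps touch Tm7sf2 (Vps51, 532 bases) and Fdps (Gm43738, 197 bases). Each size is the longest overlap of 1 exon pair, and only protein-coding genes were searched, so whole overlaps can be larger. Values of all these genes are uncertain for that reason.

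The same libraries were read for 13 genes of sterol export, storage and LXR signalling. Of 12 considered on day 1, 4 were past the rule as higher and 1 as lower, where 12.5% and 10.6% of all genes were. On day 6 these counts were 4 and 0 of 12 (10.6% and 2.9% of all genes), and on day 14 they were 5 and 3 of 12 (22.6% and 20.2%). On day 28 they were 4 and 0 of 11 (27% and 24%). Ch25h, which makes 25-hydroxycholesterol, had 1.80 CPM in sham and 77.9 on day 1. Plin2, which coats lipid droplets, had 15.5 and 399 CPM, and Nceh1, a cholesteryl ester hydrolase, had 18.7 and 116 CPM. Lipa, the lysosomal acid lipase, was 2.15-fold higher on day 1 (2.09 to 2.21). Apoe, the main sterol carrier of the brain, had 130 CPM in sham, and 195, 6183, 3862 and 2513 CPM on the 4 days after stroke. Of 14 other genes linked to SREBP, 8 were considered on day 1, and 2 were past the rule as higher and 1 as lower, against the same shares of all genes. These were Scd1 (1.95 to 21.3 CPM), Acaca (27.4 to 69.2 CPM) and Lpin1 (114 to 21.6 CPM). For that list the counts were 0 and 1 of 7 considered on day 6, 1 and 2 of 7 on day 14, and 0 and 2 of 8 on day 28. Acaca, which supplies malonyl-CoA to Fasn, was at 161 CPM on day 14. Of 7 isoprenoid genes, 4 were considered on day 1 and day 6 and none was past the rule. On day 14, 1 of 5 was higher, and on day 28, 2 of 4 were higher and 1 lower.

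**Figure D2:**
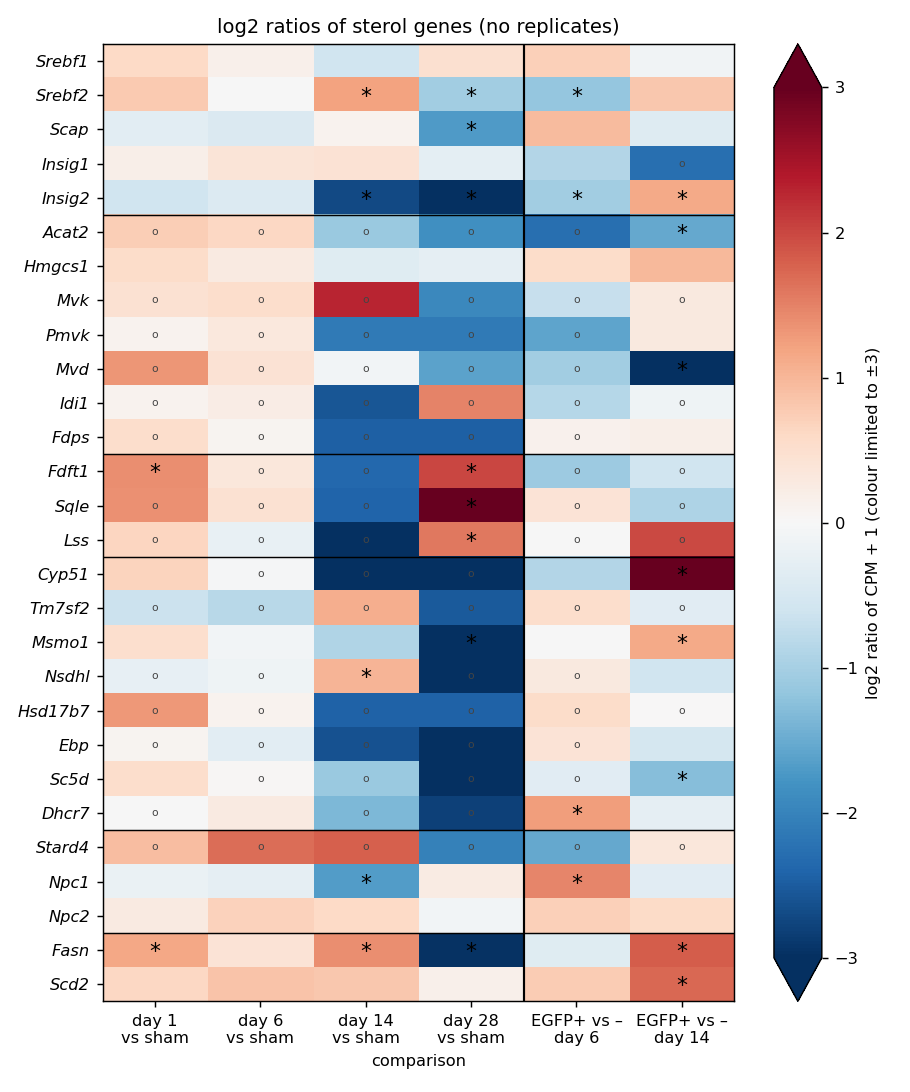
Log2 ratio of CPM plus 1 (colour, limited to 3 either way) of each of the 28 genes (rows, by role) in the 4 comparisons with sham and the 2 EGFP comparisons (columns), with a star where the size rule was passed and a circle where neither library reached 20 CPM. The day 1 column is mostly above 0, and the day 6 column runs from -0.83 to 1.67. Of the columns against sham, those of days 14 and 28 hold the largest ratios in both directions.

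EGFP-positive and EGFP-negative cells were compared within each day. Igf1 itself followed the sort, with 49.5 CPM in negative and 813 in positive cells on day 6, and 11.1 and 33.5 CPM on day 14. The cells differed in more than the reporter. On day 6 the neutrophil markers summed to 11550 CPM in negative and 376 in positive cells, with 7 of 8 past the rule as lower, and the monocyte markers to 4887 and 1509 CPM. On day 14 the order was the opposite, with neutrophil sums of 1241 and 2308 CPM (1241 and 1223 of them Csf3r) and monocyte sums of 94.1 and 541 CPM. In the negative library of day 14, 6 of 8 neutrophil markers (among them S100a8 and S100a9), 4 of 7 monocyte markers (among them Ly6c2 and Chil3) and 7 of 10 endothelial and mural markers were at 0. Their part in the differences below was not tested.

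On day 6, Npc1 and Dhcr7 were higher in EGFP-positive cells and Srebf2 and Insig2 were lower. Npc1 had 227 CPM in negative and 631 in positive cells, 2.78-fold (2.71 to 2.86). Dhcr7 had 13.3 and 32.9 CPM, 2.47-fold (2.21 to 2.76). Srebf2 had 69.9 and 30.8 CPM, 0.441-fold (0.407 to 0.478). Insig2 had 24.6 and 11.4 CPM, 0.463-fold (0.405 to 0.527), close to the rule's line. These were 2 higher and 2 lower of 13 considered, where 7.53% of all genes were higher and 11.9% lower. With RLE scaling Insig2 was no longer past the rule (-0.99) and Scap was past it as higher (1.02). The synthesis enzymes did not share a direction. Hmgcs1 had 48.7 and 72.0 CPM, Sqle 6.26 and 8.58, Cyp51 26.4 and 13.9, Msmo1 24.0 and 23.7, Acat2 4.20 and 0.0773, Mvd 8.84 and 3.79, and Sc5d 19.4 and 15.2 CPM. Among the control genes, Srebf1 had 40.9 and 67.7 CPM and Insig1 49.5 and 26.3. Fasn had 52.3 and 40.1 CPM and Scd2 132 and 224. Over all genes with at least 2 CPM the median was -0.07, with 46.4% above 0. The median over the 28 was -0.01, with 13 above 0. It was 0.05 with RLE scaling and -0.06 with total counts.

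On day 14, 5 of the 28 were past the rule as higher in EGFP-positive cells and 3 as lower, of 19 considered, where 11.2% and 10.9% of all genes were. Cyp51 was at 0 counts in negative cells, which allows up to 0.118 CPM, and at 26.1 CPM in positive cells. The negative library held a count for only 10892 genes and the positive one for 12498. Msmo1 had 15.5 and 35.4 CPM and Insig2 21.0 and 47.2. Both fatty acid genes were higher in positive cells. Fasn had 15.7 and 58.2 CPM, 3.71-fold (3.31 to 4.16), and Scd2 had 56.3 and 187 CPM, 3.32-fold (3.13 to 3.53). Lower in positive cells were Acat2 (40.3 and 13.3 CPM), Mvd (30.7 and 2.25 CPM) and Sc5d, a desaturase of the sterol ring (24.7 and 9.70 CPM). Hmgcs1 had 20.5 and 41.4 CPM, a ratio of 0.98 just inside the rule. Srebf2 had 39.3 and 70.0 CPM, the opposite order to day 6, and Insig2 was also in the opposite order to day 6. Srebf1 had 85.7 and 79.4 CPM, Insig1 13.9 and 2.11, Sqle 4.36 and 1.84, Dhcr7 38.8 and 31.9, and Npc1 150 and 119 CPM. Over the 28 the median was -0.05, with 14 above 0. Over all genes with at least 2 CPM the median was 0.07, with 53.7% above 0. These 2 libraries stand in a table of their own and were read on another sequencer, so levels are not compared with the other days.

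**Figure D3:**
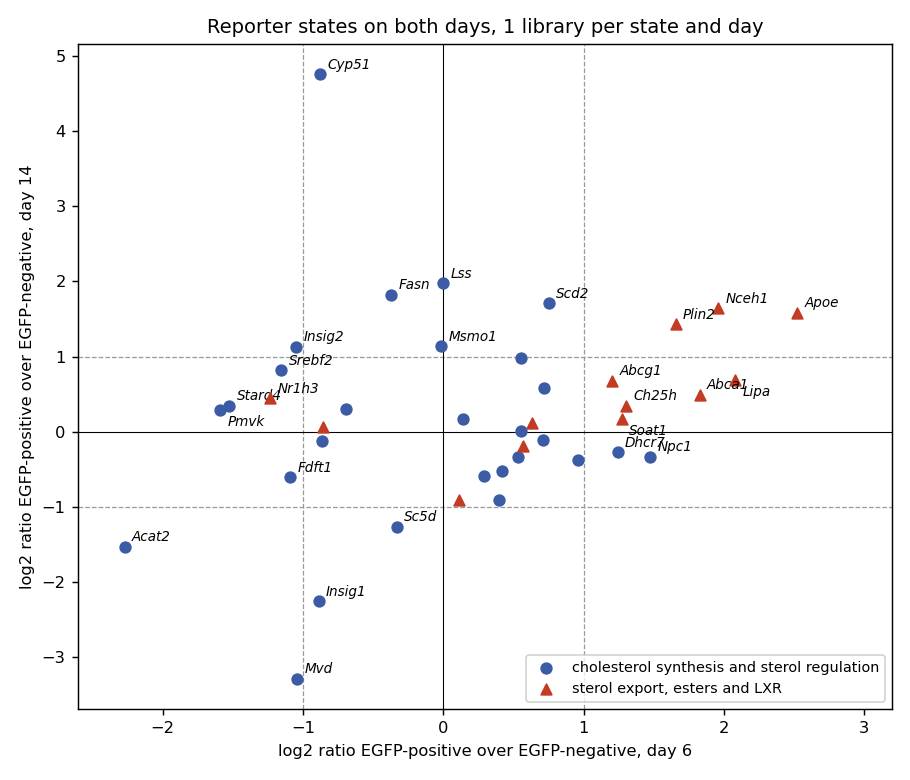
Log2 ratio of EGFP-positive over EGFP-negative CPM on day 6 (horizontal axis) and day 14 (vertical axis), 1 library per state and day, for the 28 sterol genes (circles) and 13 genes of sterol export, esters and LXR (triangles). Dashed lines mark log2 ratios of 1 and -1. Srebf2 and Insig2 lie left of 0 and above 0, and Apoe, Nceh1 and Plin2 lie above 1 on both axes.

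With the days as pairs, none of the 28 passed the test. edgeR's quasi-likelihood fit over both days had 1 residual degree of freedom and called 0 of 12842 genes (0% in each direction), with 193 (1.5%) at an unadjusted p under 0.05. Scd2 was the 1 gene of the 28 at that level, with the higher level in positive cells on each day (log2 1.25, edgeR adjusted p = 1). DESeq2 called 31 of 16328 genes and none of the 28. At the unadjusted level it had 5 of the 28, against 897 of all genes (5.49%). With limma-voom 0 genes were called and 389 reached the unadjusted level. Npc2 was also higher in positive cells on both days, by ratios of 0.72 and 0.58.

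Export genes were mostly higher in EGFP-positive cells. Of the 13 export, ester and LXR genes, 12 were considered on day 6, and 8 were past the rule as higher in positive cells and 0 as lower, where 7.53% and 11.9% of all genes were. On day 14 these counts were 3 and 0 of 12, where 11.2% and 10.9% of all genes were. The medians were 1.27 and 0.44. In the fit over both days edgeR called none of them, and DESeq2 called Apoe (adjusted p = 0.00381), Nceh1 (0.00856) and Plin2 (0.0105) as higher in positive cells. Apoe had 3281 CPM in negative and 18820 in positive cells on day 6, and 7564 and 22660 CPM on day 14. Lipa had 252 and 1068 CPM on day 6, Nceh1 130 and 507, and Abca1, the exporter of cholesterol to lipoproteins, 1122 and 3982. No gene of the other SREBP-linked list or of the isoprenoid list was past the rule on day 6. On day 14 Acaca (5.89 and 41.9 CPM), Tmem97 and Elovl5 of the SREBP-linked list were higher. In the isoprenoid list Dhdds was higher and Coq2 lower.

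Deletion of Yy1 in Cx3cr1-expressing cells was the only comparison with replicates. Yy1 had 75.9, 51.0 and 57.8 CPM in the controls and 32.4, 28.8 and 38.7 CPM in the deleted libraries. The groups did not overlap, but Yy1 itself was not called (log2 -0.88, SE 0.28, edgeR adjusted p = 0.128). All 28 genes passed the filter on low counts and were tested among 12387. None was called by edgeR at an adjusted p under 0.05, while 1.55% of all genes were called higher and 1.05% lower. At an unadjusted p under 0.05 there were 2 of the 28 (Scd2 and Npc2), against 14.1% of all genes. The log2 difference was above 0 for 13 of the 28, with a median of -0.15, and the median of all genes was -0.02. DESeq2 called those 2, Npc2 as higher and Scd2 as lower, among 753 called of 15983 genes.

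Scd2 had the smallest p of the 28. It had 214, 183 and 195 CPM in the controls and 121, 156 and 125 CPM in the deleted libraries, or 198 ± 15.6 and 134 ± 19.0 (SD, n = 3). Every deleted library lay below every control. The log2 difference was -0.56 (SE 0.17, edgeR adjusted p = 0.114), and the adjusted p ran from 0.0428 (DESeq2) to 0.431 over the alternatives.

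Npc2 was the counterpart among the transport genes. It had 216, 204 and 217 CPM in the controls and 277, 259 and 331 CPM in the deleted libraries, or 212 ± 7.18 and 289 ± 37.7 (SD, n = 3). The groups did not overlap. The log2 difference was 0.45 (SE 0.15, edgeR adjusted p = 0.152), and the adjusted p ran from 0.0499 (DESeq2) to 0.402. Npc1 did not share the direction, with means of 342 ± 28.8 and 330 ± 33.8 CPM (SD, n = 3). Stard4 was at 1.42 to 6.76 CPM in the controls and 0.984 to 3.24 in the deleted libraries.

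The Npc2 promoter is shown because it holds the core of the YY1 motif. The core AANATGGC was in windows of 2 of the 22 genes (Insig2 and Npc2, 9.09%) and in 4.49% of all genes. In Npc2 it lies at -193 on the reverse strand and is printed in capitals as read along the gene, in the distal 120 bases of the window at chr12:84773243-84773362 (minus strand). The match is a description and no binding was measured.
Npc2: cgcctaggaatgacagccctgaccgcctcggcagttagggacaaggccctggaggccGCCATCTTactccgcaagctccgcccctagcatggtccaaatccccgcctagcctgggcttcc

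The SREBP control genes split without a call. Insig1 had 85.6, 74.7 and 86.9 CPM in the controls and 72.6, 58.6 and 49.2 CPM in the deleted libraries (log2 -0.45, SE 0.23, edgeR adjusted p = 0.424). Insig2 had 16.4, 19.6 and 17.8 CPM and then 22.9, 29.1 and 25.3 CPM (log2 0.52, SE 0.39, edgeR adjusted p = 0.656). Both pairs of groups stood apart, in opposite orders. Srebf1 had 44.1, 50.5 and 71.0 CPM in the controls and 38.1, 30.8 and 54.3 CPM in the deleted libraries, and the groups overlapped. Srebf2 had 24.5, 31.3 and 22.1 CPM and then 24.4, 36.7 and 26.8 CPM, also overlapping. Their log2 differences were -0.42 (95% interval -1.07 to 0.22) and 0.18 (-0.59 to 0.94).

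Synthesis enzymes were measured with wide error. Hmgcs1 had 30.0, 34.4 and 38.8 CPM in the controls and 34.5, 41.4 and 39.7 CPM in the deleted libraries (log2 0.17, 95% interval -0.48 to 0.82). Sqle had 15.2, 10.3 and 7.25 CPM and then 8.44, 4.26 and 4.92 CPM (log2 -0.89, -2.46 to 0.68). Cyp51 had 16.7, 24.5 and 14.4 CPM and then 28.0, 19.7 and 33.8 CPM (log2 0.55, -0.32 to 1.43). The groups overlapped for all 3 genes. Msmo1 was the sterol enzyme whose deleted libraries all lay above the controls, with 14.9, 14.3 and 13.2 CPM and then 27.4, 27.3 and 18.8 CPM (log2 0.79, SE 0.43, edgeR adjusted p = 0.454). Lss and Tm7sf2 were the sterol enzymes whose deleted libraries all lay below the controls. Lss had 11.97, 9.68 and 18.9 CPM and then 3.14, 0 and 8.06 CPM (log2 -1.85, SE 1.09, edgeR adjusted p = 0.512). In all, groups that did not overlap were seen for 3 of the 28 as higher and 4 as lower, where 9.45% and 11.6% of all genes tested were. By role, 5 of 8 lanosterol genes had a difference above 0 and 0 of 3 squalene genes had.

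The spread between replicates was wider for the low genes. The 18 genes under 20 CPM had a median coefficient of variation of 29.7% in the controls and 56.2% in the deleted libraries. The 10 genes at 20 CPM or more had 10.6% and 18.6%.

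**Figure D4:**
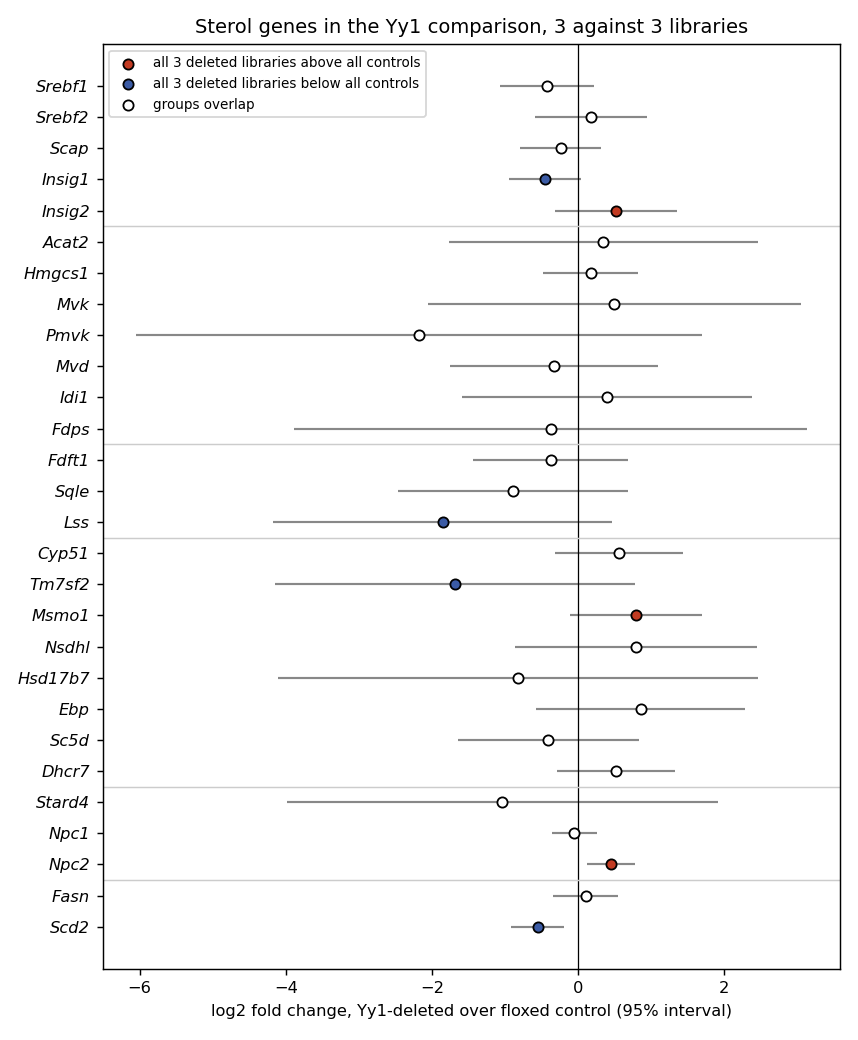
Log2 difference of Yy1-deleted over floxed control (horizontal axis) for the 28 genes by role, with edgeR's estimate as a point and its 95% interval as a bar, 3 libraries against 3. The intervals of Scd2 (-0.92 to -0.19) and Npc2 (0.13 to 0.77) leave out 0, and none of the 28 passed the adjusted threshold.

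**Figure D5:**
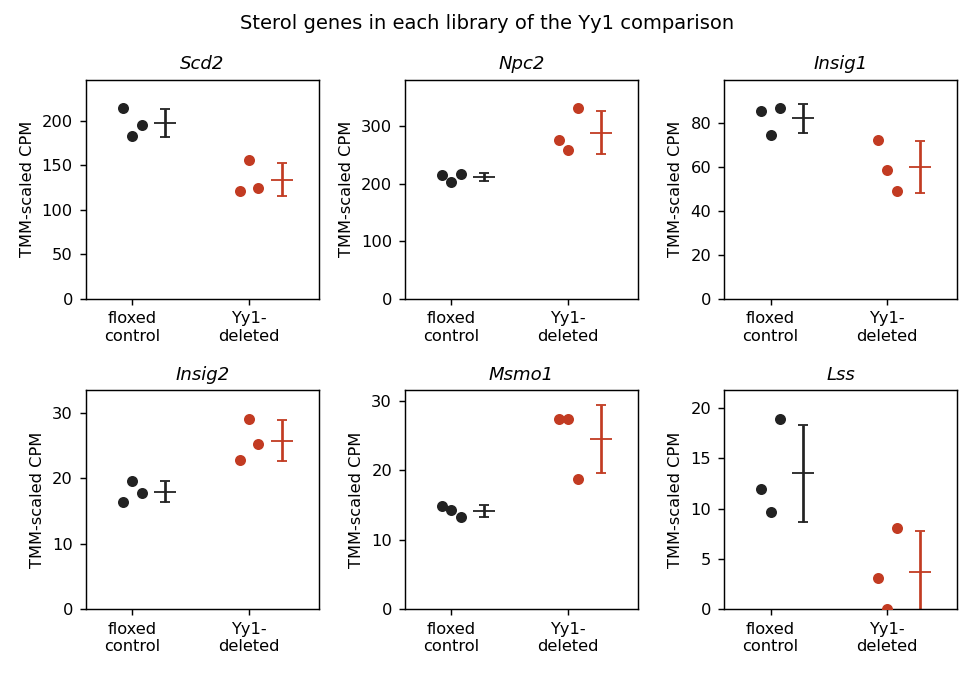
TMM-scaled CPM in each Yy1 library for 6 of the 28 genes whose groups did not overlap, 3 control and 3 deleted libraries each as points, with the mean and SD as a bar (the lower bar of Lss is cut at 0). Scd2 and Npc2 show groups that do not overlap, with means of 198 and 134 CPM and of 212 and 289 CPM.

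Among the related lists, calls came only from the list of export, ester and LXR genes. Of the 13 export, ester and LXR genes, 3 fell with an edgeR adjusted p under 0.05 and 0 rose. Of all 12387 genes tested, 1.05% were called lower and 1.55% higher. The median over the list was -0.09, and 6 of the 13 had a difference above 0. Abca1 (log2 0.01) and Abcg1 (log2 -0.20) were not called. Lpcat3 was higher in the deleted libraries, with groups that did not overlap, but was not called (log2 0.80, edgeR adjusted p = 0.0832). Apoe fell from 3414 ± 134 to 2079 ± 256 CPM (SD, n = 3; log2 -0.71, edgeR adjusted p = 0.00114). Plin2 fell from 179 ± 26.4 to 94.9 ± 18.1 CPM (log2 -0.92, edgeR adjusted p = 0.0164). Nceh1 fell from 113 ± 13.5 to 60.1 ± 5.98 CPM (log2 -0.91, edgeR adjusted p = 0.0253). Without control replicate 1, the edgeR adjusted p was 0.0628 for Plin2 and 0.162 for Nceh1. Leaving out any control ended both calls, and leaving out deleted replicate 1 or 3 ended that of Nceh1. None of the 10 SREBP-linked and 7 isoprenoid genes tested was called. In the same libraries all 9 microglia markers were called higher, with sums of 10150 to 11410 CPM in the controls and 18240 to 19770 CPM in the deleted group. Of the 7 monocyte markers 2 were called lower, with sums of 877 to 1271 and 616 to 740 CPM, and their part in these differences was not tested.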

How the data were processed

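Bulk RNA-seq counts of sorted mouse microglia were analysed from 3 deposited tables. The submitters' processing notes name STAR, featureCounts, edgeR and the builds mm10 and GRCm38, without roles or versions. The time course and EGFP tables hold whole counts per gene, as deposited by the authors without normalization. The Yy1 table, as deposited by the authors, has 3.55% to 4.75% of values not whole and was taken to hold expected counts. How the fractions arose is not given in the sources used here, and they were rounded before testing. In the whole-count tables, even numbers made up 68.7% to 90.9% of the counts between 1 and 20. If both mates of a fragment were counted there, the counting intervals are too narrow. Reads were not tied to molecules, so intervals and floors cover counting error only.

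The Yy1 groups (3 against 3) were tested in R 4.3.3 with edgeR 4.0.16 (filterByExpr, TMM, two-sided quasi-likelihood F-test, Benjamini-Hochberg threshold of 0.05 over all genes tested). The labels call these 6 samples biological replicates but do not say how many mice each holds, and p-values measure the spread between them. The EGFP states were also fitted over both days with day as a term. All other comparisons have 1 library per group and no test. DESeq2 1.42.0, limma-voom (limma 3.58.1), other scalings, filters, a pseudocount of 0.25 CPM, a replicate block and leaving out each Yy1 library were the alternatives. The count steps were tested on simulated data. Exon lengths and overlaps came from GENCODE M21 and promoter windows from RefSeq (GRCm38.p6).

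The genes and lists were chosen with earlier results of these data known. Values in every library of a comparison are given for genes called in the Yy1 comparison, past the size rule in at least 2 comparisons with sham or in an EGFP comparison, and for Srebf1, Srebf2, Insig1, Hmgcs1, Sqle, Cyp51 and Scd2. Up to 4 genes of each related list past the rule or called are named, largest first. Other genes singled out, such as Npc2, Lss, Nsdhl, Scap, Stard4, Abcg1 and Lpcat3, were chosen after their values were seen. Apoe is also given on day 1 and Acaca on day 14 for the same reason.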

Additional observations from a re-analysis of the deposited data

Results flagged for a closer look

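Insig2, whose protein holds SREBP in the endoplasmic reticulum, differed between the reporter states in opposite directions on the 2 days. Its log2 ratio of EGFP-positive over EGFP-negative cells was -1.05 on day 6 and 1.13 on day 14, a difference of 2.18. With RLE scaling the day 6 ratio was -0.99, inside the size rule. Each ratio rests on 1 library per state, and the difference was not tested. Srebf2 was in the same orders (-1.15 and 0.82) but was past the size rule on day 6 only.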

How the results depend on the processing

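With no CPM minimum, the genes past the size rule against sham were 5 higher on day 1, 1 higher on day 6, 6 higher and 14 lower on day 14, and 18 lower on day 28. Between days they were 2 lower (day 6 against day 1), 4 higher and 14 lower (day 14 against day 6) and 12 lower (day 28 against day 14). In EGFP-positive cells on day 6 they were 7 lower. The genes these counts add lie under 20 CPM in both libraries. The share of all genes without the minimum is not given here, so these counts are not read as a trait of the 28. Of all 7418 genes with 2 to 50 CPM in sham, 22.6% were under 1 CPM on day 14 and 45.8% on day 28. RLE scaling left 1 lower in EGFP-positive cells on day 6. The other changes with scaling are given beside the results. At least 10 counts in both libraries, chosen after seeing the data, left 3 lower on day 28 against sham and 3 higher on day 28 against day 14. The floor of 3 counts was 0.0562 to 0.163 CPM in the whole-count tables and 0.209 to 0.295 CPM in the Yy1 table. No count moved beyond 1.5 times with a pseudocount of 0.25 CPM.

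In the Yy1 comparison DESeq2 called 1 of the 28 higher and 1 lower, and the other alternatives called none. Over all genes, the calls as higher were 127 with total counts, 309 without a filter, 383 with DESeq2 and 289 with limma-voom, against 192. The calls as lower were 266 without a filter and 370 with DESeq2, against 130. Leaving out 1 library gave 58 (without control replicate 1) to 166 calls as higher and 39 (without control replicate 1) to 151 as lower. The labels do not say whether a replicate number marks a shared litter or day. In their deviations from the group means, same-numbered libraries correlated at -0.008, -0.048 and -0.015, which cannot settle it. A replicate block gave 503 calls (249 as lower), against 322 without it, with none among the 28. The EGFP fit over both days called 18 genes higher and 13 lower with DESeq2.

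Directions reversed for genes with no call, and the cause was not tested. Leaving out 1 library gave log2 differences of -0.0185 (without deleted replicate 2) to 0.34 for Srebf2, and of -0.12 to 0.0248 (without deleted replicate 2) for Npc1. For Fasn they ran from -0.0804 (without deleted replicate 2) to 0.22, with -6e-04 under total counts. Acat2 ran from -0.29 (without deleted replicate 3) to 0.82 and was -0.0131 with limma-voom. Mvk ran from -1.43 (without deleted replicate 3) to 1.02, and was -0.46 with limma-voom and -0.42 with the replicate block. Fdps ran from -3.66 to 0.20, and was 0.20 without control replicate 2, 0.10 without deleted replicate 1 and 0.20 without deleted replicate 3.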
